A study of Mus musculus and Homo sapiens with 17 samples.

Results

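The comparison described here set squamous cell carcinomas (SCC) of wild-type (WT) mice against skin of WT mice that had received the same carcinogen treatment. It used 6 of the 17 samples of the series: 3 WT SCC libraries and 3 WT skin libraries, both from mice of mixed strain C57BL/6-129. The label of each of these samples states treatment with DMBA and TPA, so the WT skin is treated skin and not untouched skin, and both groups share the carcinogen. Doses, times, ages and sexes are stated neither in the labels nor in the notes used here. Tumour and skin RNA came from whole sections of tissue embedded in OCT, although the cell type in the labels is keratinocytes. All 54429 named genes of the mouse count table were the members. The genes given values were picked from them by the size or p of their change, as the most abundant of a list or by name, or, where stated, after their values were seen. The labels do not state whether replicates came from separate animals, so the p-values below measure only the spread between libraries of the same group, which may in part be technical. Y-linked counts, given below, show that the 3 WT skin libraries were not all from 1 mouse. Another 5 mouse libraries, 3 of papillomas and 2 of SCC from treated mice labelled Dusp1 KO, entered the fit to help estimate the spread. The other 6 samples are xenografts of the human A431 line and were not used here.

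In this 2-stage model a single exposure to DMBA, a mutagen known to mutate Hras, is followed by repeated TPA, which activates protein kinase C and the transcription factor AP-1 and drives epidermal growth. Papillomas form first and some progress to SCC, a tumour of keratinocytes. In normal skin, basal keratinocytes that make Krt5 and Krt14 divide, move up, switch to Krt1 and Krt10 and end as cornified cells. Keratinocytes of wounded, thickened or tumour epidermis make Krt6, Krt16 and Krt17 in addition. Whole skin also holds dermis with fibroblasts, hair follicles, sebaceous glands, fat, a thin muscle layer, vessels, nerves and resident immune cells.

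Total counts per library were 34378300 to 47883625 over the 6 libraries, and 0.115 to 0.496% of them fell in rows without a gene name. Levels are CPM, counts per 1000000 counts of a library, scaled by the trimmed mean of M values, with normalization factors of 0.968 to 1.05 in WT SCC and 1.18 to 1.24 in WT skin. The WT SCC libraries were closely alike (Pearson r of 0.9747 to 0.9827 over genes on the log2 scale), whereas WT skin libraries were less so (0.8964 to 0.9559). The biological coefficient of variation was 19.84% within WT SCC and 49.57% within WT skin. WT skin replicates 1 and 2 held 6624 and 9552 counts of Y-linked genes, against 7 in WT skin replicate 3 and 0 in each WT SCC library. Sex therefore differed within the skin group and partly between the groups, and a fit with sex as a term is quoted where it ended a call or changed a fold or a count of calls by over 1.5 times. Among the other mouse libraries only KO SCC replicate 2 held Y-linked counts (4779). WT skin replicate 3 is the only skin library that matches the tumours in sex, so that fit leans on it. Sex and other traits of replicate 3 cannot be told apart there. WT skin replicates also differed in tissue makeup: the summed level of 26 hair keratin and keratin-associated genes was 61.4, 2301 and 14923 CPM, and that of 17 fibroblast genes was 37986, 19719 and 6259 CPM, in replicates 1, 2 and 3. In WT SCC the hair sum was 23.1, 25.4 and 25.2 CPM and the fibroblast sum 2615, 3193 and 4352 CPM.

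Of the 54429 genes, 22363 passed the filter on low counts and were tested. At an adjusted p of 0.05 or less, 9053 genes (40.5%) differed between WT SCC and WT skin: 3771 (16.9%) were higher in WT SCC and 5282 (23.6%) were lower. Large falls outnumbered large rises. A change of at least 2-fold was found in 4266 genes that fell (19.1%), and in 1366 that rose (6.11%). The median log2 fold change of all genes tested was -0.157. In 380 of the genes that fell, every WT SCC library had 0 counts, whereas 12 of the genes that rose had 0 counts in every WT skin library. The WT SCC libraries detected 23005 to 26891 genes with at least 1 count, and the WT skin libraries 27544 to 29667. In 54.7% of the genes tested, the 3 libraries of one group did not overlap with those of the other. Most genes named below were picked by the size or p of their change, so lack of overlap among them adds no support.

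**Figure D1:**
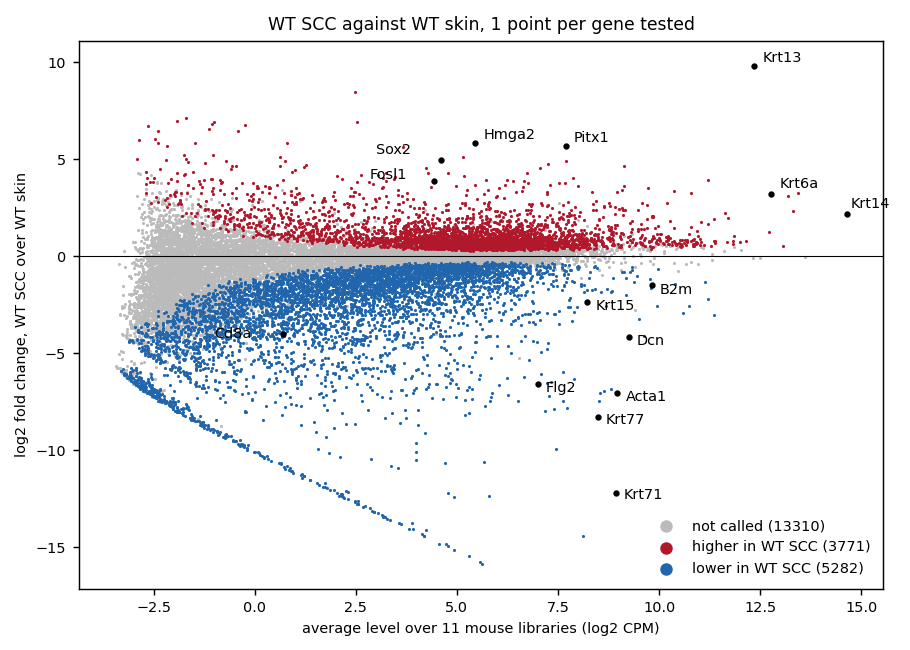
Each point is 1 of the 22363 genes tested, with the average level (log2 CPM) on the horizontal axis and the log2 fold change of WT SCC over WT skin on the vertical axis; colour marks the 3771 genes called higher and the 5282 called lower in WT SCC. Falls reach much larger sizes than rises, while Krt13 stands apart at the top with a log2 fold change of 9.82.

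The members were read through 59 gene lists that stand for cell types, pathways and complexes of skin and of squamous tumours. In 25 lists more members were called higher than lower in WT SCC, in 33 more were called lower, and in 1 the numbers were equal. Such counts stand beside the 16.9% higher and 23.6% lower among all genes tested. In lists with members in both directions, the rarer direction was often near or below its share of all genes. Lists of proliferation, activated keratinocytes, glycolysis and the NRF2 response had mostly higher members. Lists of hair, fat, muscle, fibroblasts, interferon response and antigen presentation had mostly lower ones.

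**Figure D2:**
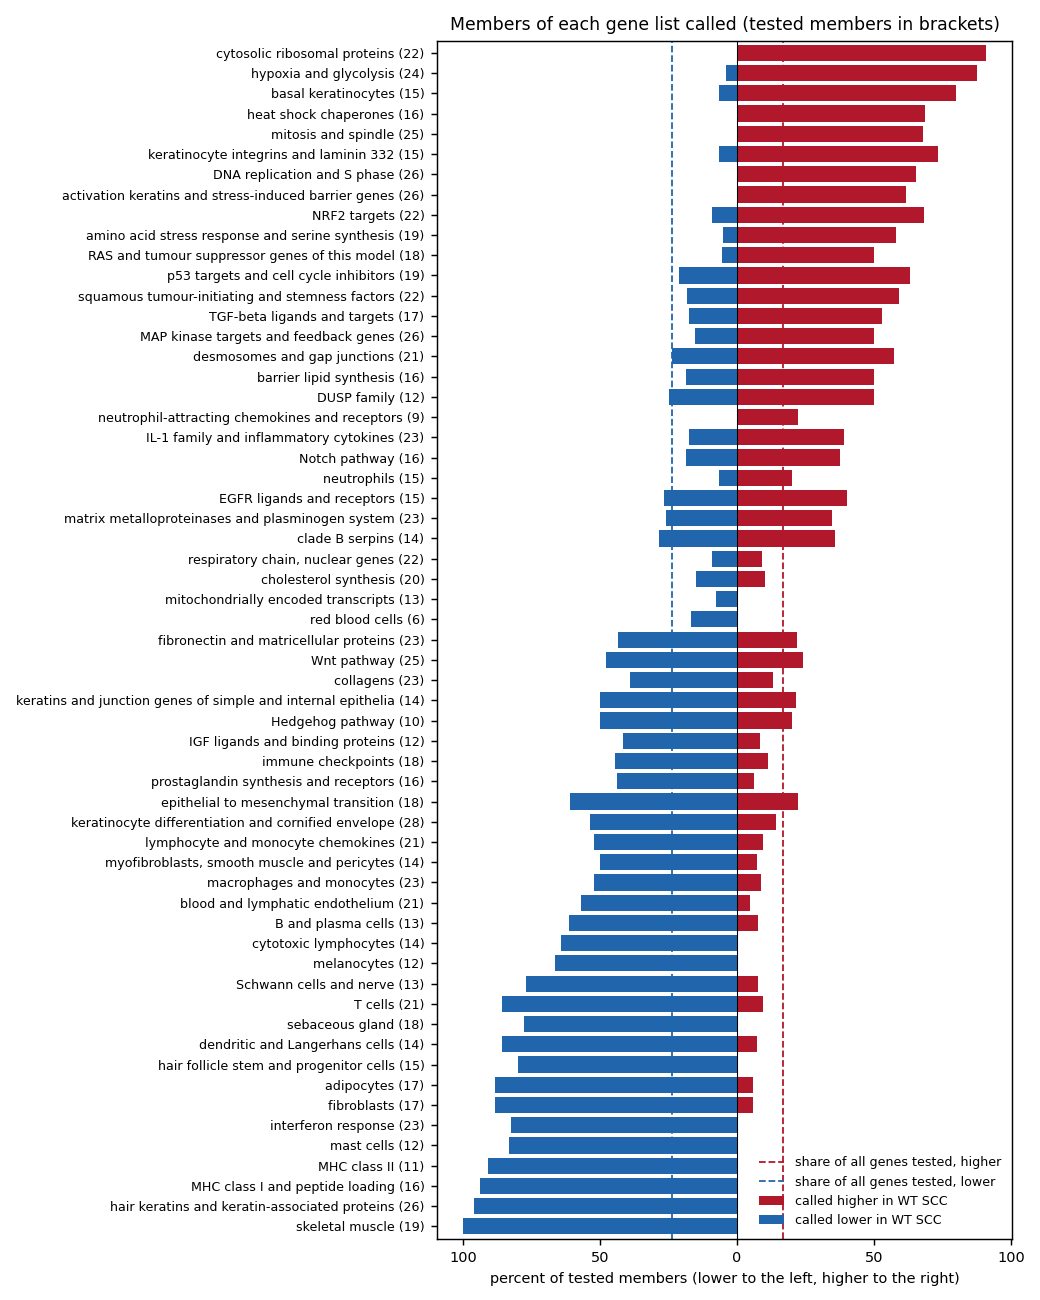
For each gene list, bars give the percent of tested members called higher in WT SCC (to the right of 0) and lower in WT SCC (to the left of 0), with the background share of all genes, 16.9% higher and 23.6% lower, as dashed lines. Lists of ribosomal proteins, glycolysis and basal keratinocytes lie far to the right, and skeletal muscle, hair and MHC class I far to the left.

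The largest rise among the well-expressed genes named here was that of Krt13, a keratin of oral and oesophageal epithelium that is a known marker of tumour progression in this mouse model. Krt13 had 2236, 1938 and 1906 CPM in WT SCC, against 4.07, 2.19 and 0.529 CPM in WT skin (log2 fold change 9.82 ± 0.77 (SE), adjusted p = 1.19e-05). Hmga2, a chromatin protein of embryonic tissues and of tumours, had 45.8, 42.4 and 33.4 CPM in WT SCC, against 1.12, 0.624 and 0.458 CPM in WT skin (log2 fold change 5.82 ± 0.39 (SE), adjusted p = 5.7e-06). The transcription factor Pitx1 had 272, 384 and 343 CPM in WT SCC, against 9.95, 9.22 and 0.476 CPM in WT skin (log2 fold change 5.67 ± 0.84 (SE), adjusted p = 0.000419). The 12 largest rises and falls were picked among genes without overlap between the groups, a trait that 54.7% of all genes tested had. Each of these 3 genes had its lowest skin value in replicate 3. Glyat, a mitochondrial enzyme that joins glycine to acyl groups, had 20.2, 15.9 and 15.5 CPM in WT SCC, against 0.0496, 0.544 and 0.405 CPM in WT skin (log2 fold change 5.63 ± 0.47 (SE), adjusted p = 1.7e-05). Sox2, a stem cell transcription factor of the oesophagus and of squamous tumours, had 23.2, 24.9 and 21.9 CPM in WT SCC, against 0.720, 0.987 and 0.511 CPM in WT skin (log2 fold change 4.98 ± 0.30 (SE), adjusted p = 4.69e-06). In WT skin the values of Sox2 were all below 1 CPM. Sox2 lies inside the long noncoding gene Sox2ot on the same strand, so reads of the 2 genes could be confused. Sox2ot itself, chosen after its values were seen, had 0.145, 0.103 and 0.349 CPM in WT SCC, against 0.670, 0.523 and 0.247 CPM in WT skin and was not called (log2 fold change -1.25 ± 0.77 (SE), adjusted p = 0.209). Pthlh, the parathyroid hormone-related peptide that squamous tumours secrete, had 213, 255 and 203 CPM in WT SCC, against 2.83, 9.34 and 12.2 CPM in WT skin (log2 fold change 4.78 ± 0.47 (SE)), and Artn, a ligand of the GDNF family, had 24.9, 32.5 and 29.6 CPM in WT SCC, against 1.37, 1.65 and 0.705 CPM in WT skin (log2 fold change 4.55 ± 0.34 (SE)). The remaining genes among the 12 largest rises were Sptssb, a subunit that alters the chain length of sphingolipids, Sprr3, Sh2d5, Ajap1 and the glutathione transferase Gsta1, with log2 fold changes from 4.28 to 4.92. Sprr3 was the least even of them in skin, with 15.5, 0.604 and 0.0352 CPM in WT skin. All 12 were also expressed in the papillomas and SCC labelled KO: Krt13 had 15387 and 14977 CPM in KO SCC and 3338, 8072 and 9540.4 CPM in KO papilloma. Krt13, Pitx1, Sprr3, Sh2d5, Ajap1 and Gsta1 had log2 fold changes of 10.83, 7.31, 7.24, 5.87, 5.29 and 5.49 with sex as a term. Krt13 and Sprr3 had log2 fold changes of 10.55 and 8.76 without WT skin replicate 1. Sptssb had a log2 fold change of 5.98 without WT skin replicate 3. Ajap1 had a log2 fold change of 5.64 without WT skin replicate 2.

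Promoters of the 4 genes with the largest rises that have an entry in the RefSeq tables (build GRCm38.p6) are printed because the changed genes were set against AP-1, the factor that TPA is known to act through. Each runs from 250 bases before to 50 bases after the gene's start in those tables, 5′ to 3′ on the gene's strand. Capitals mark matches to the AP-1 motif TGANTCA, which reads the same on both strands. They are Krt13 at chr11:100121517-100121816 on the minus strand, Hmga2 at chr10:120476420-120476719 on the minus strand, Glyat at chr19:12633058-12633357 on the plus strand and Sox2 at chr3:34649745-34650044 on the plus strand. The table holds 2 starts for Krt13, and the one nearest to the annotated 5′ end of the gene is shown. For Sox2 the whole window lies before the annotated 5′ end of the gene, at 34650405.
Krt13: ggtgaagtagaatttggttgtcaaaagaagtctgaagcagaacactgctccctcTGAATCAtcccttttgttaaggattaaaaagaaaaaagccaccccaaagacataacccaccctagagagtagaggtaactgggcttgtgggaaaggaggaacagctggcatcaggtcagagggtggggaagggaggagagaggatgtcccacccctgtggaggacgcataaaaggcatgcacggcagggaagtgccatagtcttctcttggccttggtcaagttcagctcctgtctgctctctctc
Hmga2: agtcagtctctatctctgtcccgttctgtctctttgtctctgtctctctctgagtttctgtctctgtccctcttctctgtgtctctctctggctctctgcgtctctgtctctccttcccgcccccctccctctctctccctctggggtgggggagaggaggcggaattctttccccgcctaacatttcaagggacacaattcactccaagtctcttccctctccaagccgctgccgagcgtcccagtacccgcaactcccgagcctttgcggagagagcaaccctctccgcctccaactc
Glyat: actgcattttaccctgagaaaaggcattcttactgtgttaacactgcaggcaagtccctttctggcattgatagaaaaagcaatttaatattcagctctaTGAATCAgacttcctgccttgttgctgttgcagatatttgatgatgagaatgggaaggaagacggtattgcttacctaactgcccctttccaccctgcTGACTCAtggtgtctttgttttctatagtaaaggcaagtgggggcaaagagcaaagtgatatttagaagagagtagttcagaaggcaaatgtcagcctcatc
Sox2: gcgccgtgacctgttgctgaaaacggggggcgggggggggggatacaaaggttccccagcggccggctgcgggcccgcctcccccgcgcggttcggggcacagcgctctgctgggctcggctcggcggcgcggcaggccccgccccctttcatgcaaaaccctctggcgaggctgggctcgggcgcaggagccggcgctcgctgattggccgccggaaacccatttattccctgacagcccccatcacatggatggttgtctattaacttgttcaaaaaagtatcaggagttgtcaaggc

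In these 4 windows the motif was found once for Krt13, at position -196 from the start, and at positions -150 and -52 for Glyat, while the letters did not occur in the windows of Hmga2 and Sox2. Of all 32851 promoter entries, 7.81% held the motif. Among genes tested here that have an entry, the share was 7.11% for those called higher, 9.69% for those called lower and 6.59% for those not called. Among genes called higher by at least 4-fold it was 13.1% (34 of 260 genes), and among those called lower by at least 4-fold 10.9% (201 of 1851 genes). These shares are descriptions of letters in a window and were not tested against each other.

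Among the 12 largest falls outside the hair, muscle, fat and blood lists, several genes were near 0 in every tumour. C7, a complement protein, had 0, 0.123 and 0.0233 CPM in WT SCC, against 190.1, 91.8 and 1.60 CPM in WT skin (log2 fold change -10.67 ± 1.76 (SE), adjusted p = 0.000816). Krt75, a keratin of the hair follicle's companion layer, had 0.145, 0.0617 and 0.140 CPM in WT SCC, against 13.7, 80.6 and 439 CPM in WT skin (log2 fold change -10.60 ± 1.71 (SE), adjusted p = 0.000695). Inmt, a methyltransferase of small amines, had 0, 0.0823 and 0.256 CPM in WT SCC, against 82.9, 50.8 and 69.0 CPM in WT skin (log2 fold change -9.13 ± 0.76 (SE), adjusted p = 1.65e-05). The 3 skin libraries spread widely for C7 and Krt75 in opposite order, replicate 3 being lowest for C7 and highest for Krt75, while Inmt was even. Krt77, a keratin of the suprabasal epidermis in mice, had 0.987, 1.40 and 10.0 CPM in WT SCC, against 1555, 1336 and 935 CPM in WT skin (log2 fold change -8.26 ± 1.19 (SE), adjusted p = 0.00034). Lack of overlap was a condition of its choice, and its highest tumour value, 10.0 CPM, lay far below its lowest skin value, 935 CPM. Cox8b, Mylk4 and Apobec2, which are known from striated muscle, had 40.6, 52.2 and 39.5 CPM, 30.9, 41.8 and 29.0 CPM and 116, 163 and 125 CPM in WT skin and less than 1 CPM in every WT SCC library (log2 fold change -8.59 ± 0.76 (SE), log2 fold change -8.32 ± 0.84 (SE) and log2 fold change -8.18 ± 0.52 (SE)). Crym, a thyroid hormone binding protein, fell by 9.63 on the log2 scale. Krt26 and Krtap3-3, both of the hair follicle, had 0 counts in every WT SCC library. Krt26 had 0.0248, 20.9 and 156 CPM in WT skin, and Krtap3-3 had 0.323, 16.1 and 68.9 CPM. Against a floor of 3 counts per library, WT SCC lay at least 811-fold and 390.3-fold below the WT skin means of these genes. Replicate 3 made up most of both means. In WT skin replicate 1, Krt26 lay below the floors of the WT SCC libraries (0.0617 to 0.0871 CPM), so no fall can be shown against that library. The Y-linked genes Eif2s3y and Ddx3y were also among the 12 and follow the sexes described above: Ddx3y had 0 counts in every WT SCC library and 57.0, 65.6 and 0.0529 CPM in WT skin. Of the 5 genes listed for sex, 4 were called lower, and none with sex as a term or in the 6 WT libraries alone. The call of Ddx3y was lost without any one library other than WT skin replicate 3 (adjusted p = 0.0651 to 0.0893). Xist, which female cells express, had 497, 478 and 404 CPM in WT SCC, against 0.0745, 0.705 and 382 CPM in WT skin. Xist was called without WT skin replicate 3 (adjusted p = 0.000142). C7, Krt75, Krt77 and Crym had log2 fold changes of -4.79, -11.22, -7.45 and -10.35 with sex as a term. C7, Cox8b, Mylk4 and Crym had log2 fold changes of -12.53, -7.94, -7.68 and -8.98 without WT SCC replicate 2. C7 had a log2 fold change of -9.65 without WT skin replicate 1. Krt75 and Crym had log2 fold changes of -8.66 and -7.17 without WT skin replicate 3. Inmt, Krt77, Cox8b, Mylk4, Apobec2 and Crym had log2 fold changes of -10.39, -10.05, -11.51, -13.48, -9.32 and -10.91 without WT SCC replicate 3.

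Basal keratinocyte genes were mostly higher in the tumours: of 15 tested, 12 rose and 1 fell, with a median log2 fold change of 1.60. Krt14, the main basal keratin, had 28062, 26728 and 24940.5 CPM in WT SCC, against 6173, 8053 and 3169 CPM in WT skin (log2 fold change 2.20 ± 0.32 (SE), adjusted p = 0.000364). Trp63, the master transcription factor of basal epidermis, had 455, 446 and 407 CPM in WT SCC, against 127, 227 and 213 CPM in WT skin (log2 fold change 1.21 ± 0.19 (SE), adjusted p = 0.000653), and the basal desmosomal cadherin Dsg3 had 277, 353 and 357 CPM in WT SCC, against 48.1, 51.9 and 34.9 CPM in WT skin (log2 fold change 2.87 ± 0.19 (SE), adjusted p = 5.7e-06). All WT SCC values of these 3 genes lay above all WT skin values. The exception was Krt15, a keratin of resting basal cells and of the hair follicle bulge, which fell, with 166, 127 and 152 CPM in WT SCC, against 857, 770.4 and 665 CPM in WT skin (log2 fold change -2.37 ± 0.16 (SE), adjusted p = 5.42e-06). Integrins and laminins that anchor basal cells to the basement membrane rose with them in 11 of 15 genes, 1 falling. Itga6 had 564, 621 and 539 CPM in WT SCC, against 111, 209.6 and 103 CPM in WT skin (log2 fold change 2.03 ± 0.27 (SE)), and its partner Itgb4 had 207, 375 and 286 CPM in WT SCC, against 72.3, 97.3 and 41.8 CPM in WT skin (log2 fold change 2.04 ± 0.30 (SE)). Lama3, a chain of a basement membrane laminin, rose by 2.25 on the log2 scale, and Itgb8 was the one that fell (-0.68). The call of Itgb8 was lost without WT SCC replicate 2 (adjusted p = 0.0614).

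Keratins of activated epidermis were among the most abundant transcripts of the tumours. Of 26 genes in the activation list, 16 rose and 0 fell, with a median of 1.41. Krt6a had 6616, 6796 and 6678 CPM in WT SCC, against 699, 1129 and 360.3 CPM in WT skin (log2 fold change 3.20 ± 0.36 (SE), adjusted p = 8.15e-05), and Krt16 had 9912, 9602 and 9457 CPM in WT SCC, against 1281, 1857 and 196 CPM in WT skin (log2 fold change 3.12 ± 0.61 (SE), adjusted p = 0.00225). Krt6b had 9608, 8031 and 8379 CPM in WT SCC, against 1057, 1531 and 177 CPM in WT skin (log2 fold change 3.23 ± 0.58 (SE)). Skin replicate 3 was lowest for each of these keratins, and no skin value reached the tumour range. Krt6a and Krt6b are near-identical copies, so the split of reads between them is uncertain. The gap junction genes Gjb2 and Gjb6 rose by 2.05 and 2.24 on the log2 scale, the crosslinking enzyme Tgm1 by 1.87, Sprr2h by 2.66 and the surface antigen Ly6d by 1.32. Krt16 and Krt6b had log2 fold changes of 4.48 and 4.54 with sex as a term. Krt16 had a log2 fold change of 3.70 without WT skin replicate 2.

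Late differentiation genes moved the other way, with exceptions. Of 28 genes of differentiation and the cornified envelope, 15 fell and 4 rose, with a median of -0.92. Flg2, a filaggrin-like protein of the granular layer, had 2.44, 2.31 and 7.61 CPM in WT SCC, against 418, 467 and 318 CPM in WT skin (log2 fold change -6.60 ± 0.47 (SE), adjusted p = 7.7e-06). Lce1m, a late cornified envelope protein, had 1.63, 1.05 and 4.56 CPM in WT SCC, against 756, 627 and 288 CPM in WT skin (log2 fold change -7.85 ± 0.64 (SE), adjusted p = 1.45e-05). The tumours stood far below all 3 skin libraries in both. Other Lce1 genes, which are close copies of each other, fell less, from -3.11 for Lce1c to -2.43 for Lce1d. Hrnr and Dsg1a, a protein of the cornified layer and a cadherin of differentiated desmosomes, fell (log2 fold changes of -2.13 and -1.87). Krt10, the main keratin of the suprabasal layers, did not pass the test, with 911, 954 and 1058 CPM in WT SCC, against 1763, 2108 and 996 CPM in WT skin (log2 fold change -0.73 ± 0.28 (SE), adjusted p = 0.058). WT skin replicate 3 fell between WT SCC libraries for Krt10, while the other two skin libraries lay above. The 4 members that rose were Tgm3, a transglutaminase of hair and cornified cells, which had 285, 243 and 279 CPM in WT SCC, against 7.87, 43.1 and 20.1 CPM in WT skin (log2 fold change 3.51 ± 0.54 (SE)), and Cnfn, Calml3 and Ivl, with log2 fold changes of 2.04, 1.04 and 0.97. Ivl (involucrin) is an early envelope protein. The call of Ivl was lost without WT SCC replicate 1, WT skin replicate 2 or WT skin replicate 3 (adjusted p = 0.0596 to 0.0853). Krt10 was called with no filter on low counts, with DESeq2 and without WT skin replicate 3 (adjusted p = 0.0377, 0.0199 and 0.00698). Flg2 and Lce1m had log2 fold changes of -7.40 and -8.71 without WT SCC replicate 3. Krt10 had a log2 fold change of -0.05 with sex as a term. Tgm3 had a log2 fold change of 4.25 without WT skin replicate 2.

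**Figure D3:**
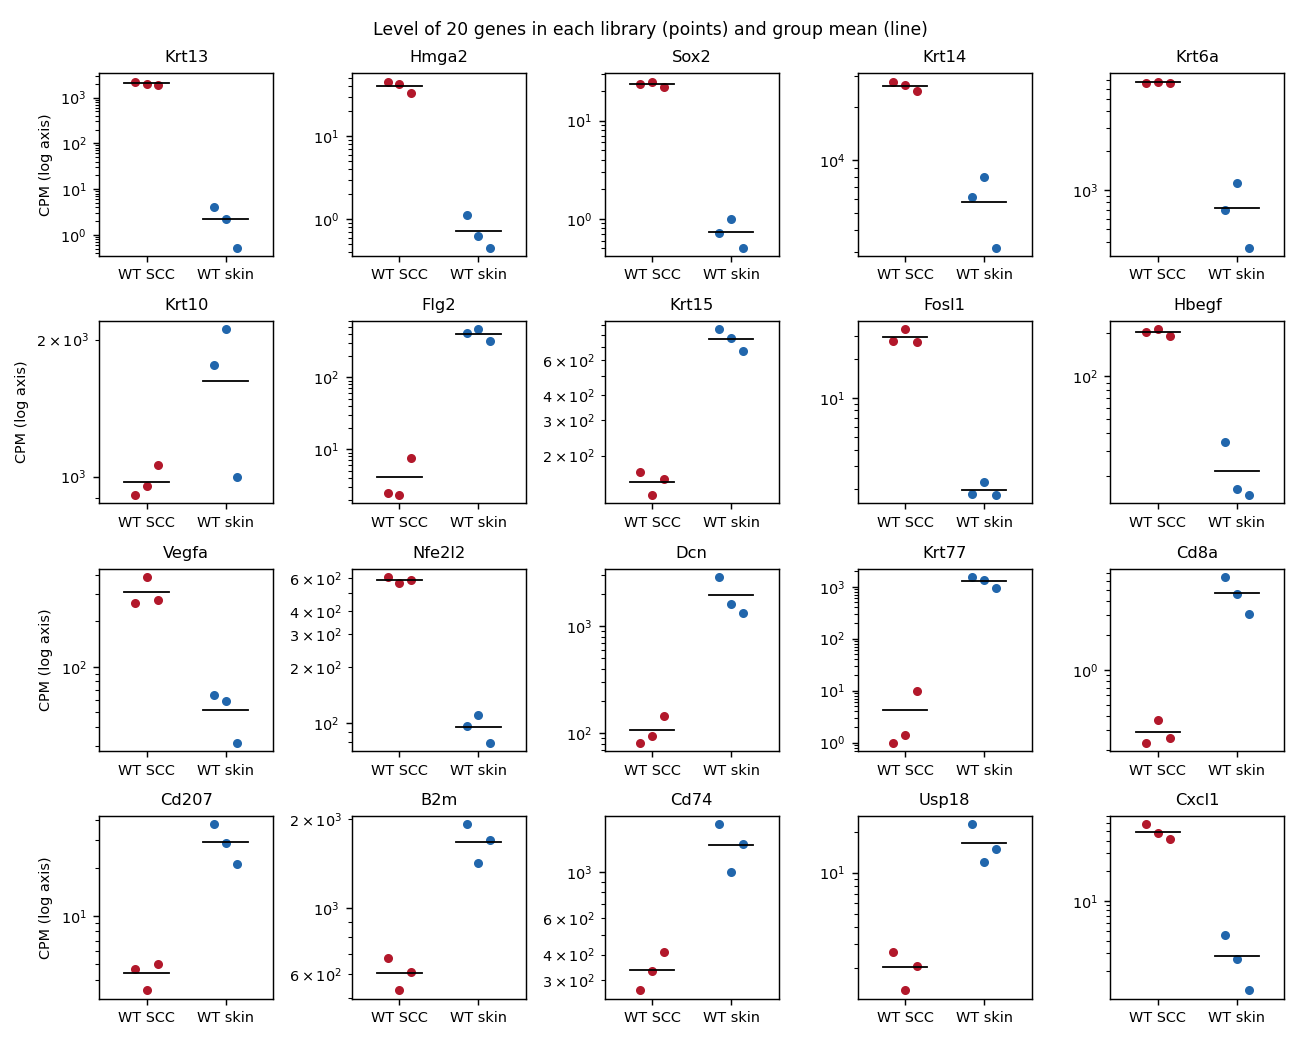
Levels (CPM, log axis) of 20 genes in each of the 3 WT SCC libraries (left in each panel) and the 3 WT skin libraries (right); horizontal bars mark group means. Krt13, Sox2 and Fosl1 lie above all skin libraries in the tumours, and Flg2 and Krt15 below, while Krt10 overlaps.

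Ratios of 2 transcripts within a library do not depend on library scaling and show how the keratin programme was proportioned. The ratio of Krt10 to Krt14 counts was 0.0325, 0.0357 and 0.0424 in WT SCC, against 0.286, 0.262 and 0.314 in WT skin. Krt15 to Krt14 was 0.00591, 0.00475 and 0.0061 in WT SCC, against 0.139, 0.0957 and 0.21 in WT skin. Krt6a to Krt14 went the other way, with 0.236, 0.254 and 0.268 in WT SCC and 0.113, 0.14 and 0.114 in WT skin. In each ratio the 3 tumours were apart from the 3 skin libraries. Every ratio to Krt14 also carries the rise of Krt14, and Krt10 itself did not pass the test, so Krt10 to Krt14 does not show a fall of Krt10. Krt77 to Krt10 was 0.00108, 0.00147 and 0.00948 in WT SCC, against 0.882, 0.634 and 0.939 in WT skin, a log2 difference of -8.35. Flg2 to Flg was 0.0179, 0.0239 and 0.061 in WT SCC, against 2.38, 3.65 and 1.2 in WT skin, so the 2 filaggrin-family transcripts did not change in equal measure. For each of these ratios the exact two-sided permutation test gave p = 0.1, the smallest value that 3 against 3 libraries allow, so none can pass 0.05. The ratios, and Flg, Col1a1 and Ptprc as terms in them, were chosen after their values were seen.

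**Figure D4:**
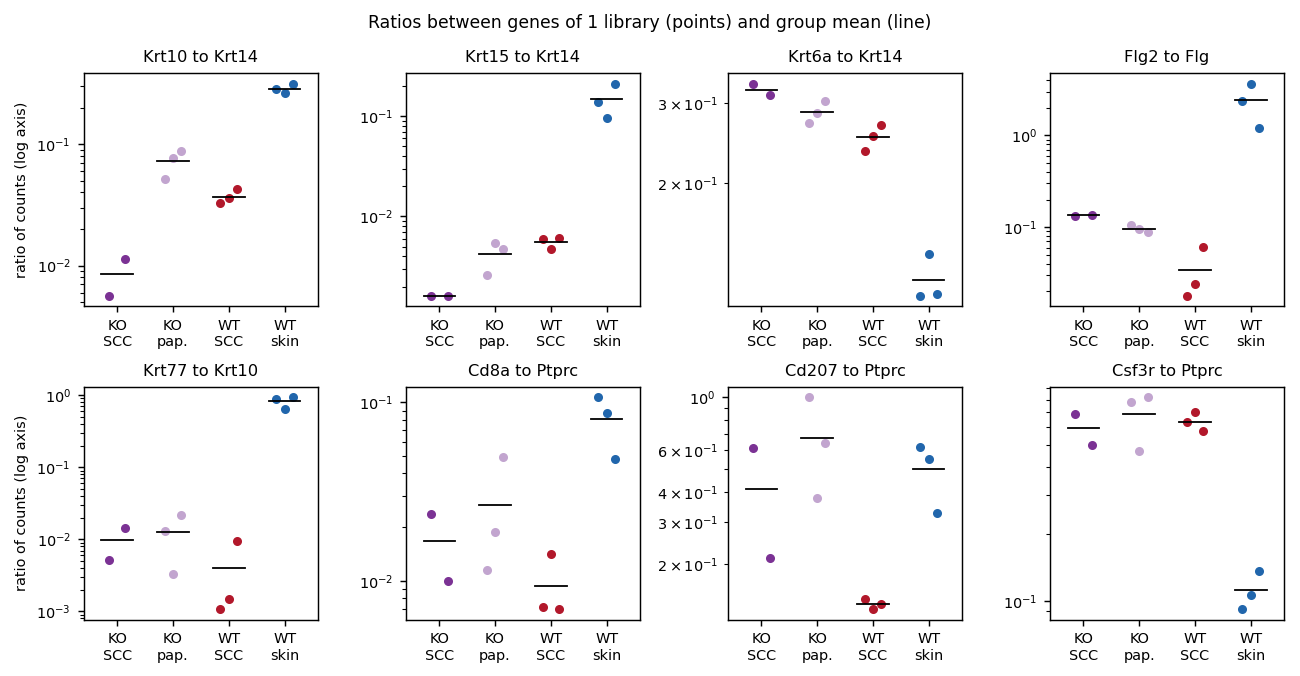
Ratios of gene pairs within each library, on a log axis, for KO SCC, KO papilloma, WT SCC and WT skin from left to right; points are libraries and lines group means. For the pairs shown, the 3 WT SCC libraries do not overlap with the 3 WT skin libraries, and Krt10 to Krt14 is lower in WT SCC (0.0325 to 0.0424) than in WT skin (0.262 to 0.314).

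Of 16 enzymes of barrier lipid synthesis, which make the ceramides of the cornified layer, 8 rose and 3 fell. The share that fell is below the 23.6% of all genes. Alox12b and Aloxe3, lipoxygenases needed for the lipid envelope, rose by 2.78 and 1.67 on the log2 scale, and the ceramide synthase Cers3 had 146, 132 and 149 CPM in WT SCC, against 68.6, 46.6 and 50.8 CPM in WT skin (log2 fold change 1.36 ± 0.17 (SE)). Elovl4, which makes the very long fatty acids of these ceramides, fell, with 416, 361 and 469 CPM in WT SCC, against 1457, 1143 and 1311 CPM in WT skin (log2 fold change -1.65 ± 0.20 (SE)), as did Lipk (-1.83) and Sptlc3 (-0.92). Desmosome and gap junction genes rose in 12 of 21 and fell in 5, the latter a share near the 23.6% of all genes. Those that fell included Dsg1a, the plakophilin Pkp2 (-1.85) and the connexin Gjb5 (-2.11), while Gjb2 and Gjb6 rose. Connexins of one family thus moved in both directions. Of 14 clade B serpins, intracellular protease inhibitors clustered in the genome, 5 were higher and 4 lower, the share lower being little above the 23.6% of all genes. Serpinb12 had 453, 298 and 338 CPM in WT SCC, against 26.5, 51.5 and 31.6 CPM in WT skin (log2 fold change 3.31 ± 0.38 (SE)), whereas Serpinb7 had 0.522, 0.350 and 1.42 CPM in WT SCC, against 99.6, 92.4 and 50.9 CPM in WT skin (log2 fold change -6.72 ± 0.52 (SE)). Serpinb2, which overlaps Serpinb10, fell by 1.5 on the log2 scale. Keratins and junction genes of simple and internal epithelia fell in 7 of 14 and rose in 3 (Krt13, Krt4 at 1.61 and the transcription factor Elf3 at 2.13). Krt23 fell by 4.08 on the log2 scale, and Ocln, Cldn4 and Epcam also fell (-1.72, -1.30 and -0.77). The call of Krt4 was lost without WT SCC replicate 1, WT skin replicate 1 or WT skin replicate 2 (adjusted p = 0.0857 to 0.0953). Sptlc3 and Krt4 were not called with sex as a term (adjusted p = 0.124 and 0.111). Alox12b, Aloxe3 and Elf3 had log2 fold changes of 3.48, 2.28 and 2.99 with sex as a term. Serpinb7 had a log2 fold change of -7.55 without WT SCC replicate 3.

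Factors known from squamous tumour-initiating cells rose in 13 of 22 and fell in 4. Besides Sox2 and Hmga2, the transcription factor Runx1 had 118, 127 and 108 CPM in WT SCC, against 30.2, 33.9 and 36.1 CPM in WT skin (log2 fold change 1.82 ± 0.16 (SE), adjusted p = 2.36e-05), and Klf5 had 281, 252 and 216 CPM in WT SCC, against 68.3, 95.4 and 62.0 CPM in WT skin (log2 fold change 1.73 ± 0.19 (SE)). Cd44, a hyaluronan receptor of tumour-initiating cells, had 708, 710.4 and 664 CPM in WT SCC, against 196, 272 and 212 CPM in WT skin (log2 fold change 1.61 ± 0.15 (SE), adjusted p = 3.3e-05), and the angiogenic factor Vegfa had 262, 391 and 274 CPM in WT SCC, against 64.8, 59.5 and 31.5 CPM in WT skin (log2 fold change 2.57 ± 0.31 (SE)). WT SCC values were above WT skin values throughout these 4 genes. The 4 that fell were Gata3, a regulator of epidermal and follicular differentiation (-1.99), Twist1 (-2.72), Nrp1 (-0.71) and Grhl1 (-0.71), while its relative Grhl3 rose (1.68). Of 18 genes of epithelial to mesenchymal transition, 11 fell and 4 rose. Vim, the mesenchymal intermediate filament, had 212, 234 and 303 CPM in WT SCC, against 1129, 792 and 805 CPM in WT skin (log2 fold change -1.86 ± 0.25 (SE), adjusted p = 0.000228). Zeb1, Zeb2, Twist2, Prrx1 and Cdh2 fell (log2 fold changes of -1.44, -2.34, -1.94, -2.22 and -2.91). The members that rose were Snai2, which basal keratinocytes also express (1.45), the epithelial cadherin Cdh1 (0.61) and the epithelial splicing factors Esrp1 (0.47) and Esrp2 (1.09) (2 rose without WT SCC replicate 2). The call of Nrp1 was lost without WT SCC replicate 2, WT SCC replicate 3 or WT skin replicate 3 (adjusted p = 0.0574 to 0.091). The call of Cdh1 was lost without WT SCC replicate 2 (adjusted p = 0.0528). The call of Esrp1 was lost without WT SCC replicate 1, WT SCC replicate 2, WT SCC replicate 3 or WT skin replicate 1 (adjusted p = 0.052 to 0.14). Dermal fibroblasts also express Vim, Zeb1, Zeb2, Prrx1 and Twist1, and fibroblast levels fell along with them. In bulk RNA, fewer cells of a type and less RNA per cell cannot be told apart, here and in all cell type lists below. Cdh1 and Esrp1 were not called with sex as a term (adjusted p = 0.0661 and 0.137). Esrp1 was not called in the 6 WT libraries alone (adjusted p = 0.0625). Twist1 had a log2 fold change of -2.06 with sex as a term.

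RAS signalling was read from its genes and its targets. Of 18 RAS and tumour suppressor genes of the model, 9 rose and 1 fell (5 rose with sex as a term). Hras had 224, 225 and 203 CPM in WT SCC, against 127, 129 and 175 CPM in WT skin (log2 fold change 0.60 ± 0.16 (SE), adjusted p = 0.0118). Trp53, the tumour suppressor often lost late in this model, had 51.6, 75.7 and 73.8 CPM in WT SCC, against 43.8, 45.1 and 45.7 CPM in WT skin (log2 fold change 0.58 ± 0.15 (SE), adjusted p = 0.011). The tumours lay above the skin libraries for Hras and Trp53, but WT skin replicate 3 came closest for Hras. Counts say nothing of mutations. The member that fell was Tgfbr2, a receptor whose loss is known to promote SCC (-1.02). Cdkn2b rose by 0.74 on the log2 scale. Cdkn2a, the locus of p16 and p19, had 31.9, 32.2 and 33.9 CPM in WT SCC, against 36.6, 15 and 3.28 CPM in WT skin (log2 fold change 0.84 ± 0.58 (SE), adjusted p = 0.26). Cdkn2a was called with no filter on low counts, with sex as a term and without WT skin replicate 1 (adjusted p = 0.0233, 0.0361 and 0.0144). Hras and Trp53 were not called with sex as a term (adjusted p = 0.111 and 0.0757). Cdkn2a had a log2 fold change of 2.33 with sex as a term. Cdkn2a had a log2 fold change of 1.84 without WT skin replicate 1.

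MAP kinase targets and feedback genes rose in 13 of 26 and fell in 4 (2 without a filter on low counts). Fosl1, an AP-1 subunit induced by ERK, had 27.2, 33.6 and 26.9 CPM in WT SCC, against 1.84, 2.28 and 1.80 CPM in WT skin (log2 fold change 3.89 ± 0.21 (SE), adjusted p = 3.91e-06). Phlda1 had 62.1, 62.0 and 50.5 CPM in WT SCC, against 11.1, 11.4 and 10.2 CPM in WT skin (log2 fold change 2.42 ± 0.14 (SE), adjusted p = 4.69e-06), and Myc had 85.9, 87.0 and 78.3 CPM in WT SCC, against 27.6, 39.9 and 26.4 CPM in WT skin (log2 fold change 1.42 ± 0.18 (SE), adjusted p = 0.000157). Each was higher in all 3 tumours than in any skin library. Etv4, Ier3, Ccnd1 and Junb rose by 1.92, 1.87, 1.66 and 1.07 on the log2 scale, whereas Egr2, Egr3, Spry1 and the AP-1 subunit Jund fell (log2 fold changes of -2.39, -1.05, -0.57 and -0.50). The call of Jund was lost without WT SCC replicate 1 or WT skin replicate 1 (adjusted p = 0.0819 to 0.0939). Of 12 dual-specificity phosphatases, which remove the activating phosphates from MAP kinases, 6 rose and 3 fell. The share of phosphatases that fell is near the 23.6% of all genes. Dusp6, the cytoplasmic ERK phosphatase that ERK itself induces, had 411, 504 and 462 CPM in WT SCC, against 97.4, 55.3 and 87.9 CPM in WT skin (log2 fold change 2.52 ± 0.35 (SE), adjusted p = 0.000283). Dusp5 and Dusp7 rose by 1.7 and 2.14 on the log2 scale, and Dusp4 and Dusp14 by 1.0 and 0.59. Dusp2, Dusp3 and Dusp10 fell (log2 fold changes of -2.20, -0.81 and -0.94). The call of Dusp10 was lost without WT SCC replicate 1, WT SCC replicate 2, WT SCC replicate 3 or WT skin replicate 3 (adjusted p = 0.0609 to 0.112). Spry1 and Jund were not called with no filter on low counts (adjusted p = 0.0514 and 0.0657). Jund and Dusp4 were not called with sex as a term (adjusted p = 0.137 and 0.0707). Dusp2 had a log2 fold change of -1.21 without WT skin replicate 3.

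Dusp1 itself, the phosphatase named in the series title, had 73.3, 83.6 and 66.5 CPM in WT SCC, against 94.1, 109 and 52.3 CPM in WT skin and did not pass the test (log2 fold change -0.19 ± 0.23 (SE), adjusted p = 0.515). The 3 WT SCC values lay within the range of the 3 WT skin values. Its log2 fold change was positive with sex as a term (0.32) and without WT skin replicate 2 (0.02). Libraries labelled Dusp1 KO had 139 and 174 CPM in KO SCC and 129, 109 and 109.5 CPM in KO papilloma, which is not lower than in WT. The labels do not state the kind of deletion, so these counts do not check the label. Several annotated genes overlap Dusp1. Dusp1 was called without WT skin replicate 3 (adjusted p = 0.0481).

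Ligands of the EGF receptor family drive keratinocyte growth. Of 15 genes of its ligands and receptors, 6 were higher and 4 lower, the share lower being near the 23.6% of all genes. Hbegf had 203, 212 and 190.1 CPM in WT SCC, against 34.6, 16.2 and 14.8 CPM in WT skin (log2 fold change 3.21 ± 0.29 (SE), adjusted p = 2.47e-05), Areg had 63.5, 66.3 and 45.6 CPM in WT SCC, against 5.91, 5.13 and 12 CPM in WT skin (log2 fold change 2.93 ± 0.30 (SE)) and Tgfa had 91.2, 116 and 94.3 CPM in WT SCC, against 23.1, 22.2 and 28.5 CPM in WT skin (log2 fold change 2.03 ± 0.25 (SE)). Nrg1, a ligand of ERBB3 and ERBB4, had 52.4, 51.4 and 36.8 CPM in WT SCC, against 5.63, 4.37 and 1.32 CPM in WT skin (log2 fold change 3.64 ± 0.41 (SE)). For these 4 ligands, picked by their small p, the groups did not overlap, as in 54.7% of all genes tested. Egf, Btc and Nrg4 fell (log2 fold changes of -2.57, -1.54 and -2.98), and Lrig3 fell by 0.76. The ligands that fell had at most 27.4 CPM in WT skin, while Hbegf reached 212 CPM in WT SCC. Nrg1 had a log2 fold change of 4.29 with sex as a term.

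Cell cycle genes were higher in the tumours. In the list of DNA replication and S phase 17 of 26 genes rose and 0 fell, and in that of mitosis 17 of 25 rose and 0 fell, with median log2 fold changes of 0.70 and 0.91. Ccne1, which drives entry into S phase, had 28.7, 28 and 24.6 CPM in WT SCC, against 5.58, 7.41 and 9.07 CPM in WT skin (log2 fold change 1.88 ± 0.19 (SE), adjusted p = 4.9e-05), and the mitotic gene Cdc20 had 72.6, 86.6 and 78.3 CPM in WT SCC, against 15.9, 32.2 and 34.5 CPM in WT skin (log2 fold change 1.52 ± 0.24 (SE), adjusted p = 0.000616). Birc5 (survivin) had 65.9, 59.4 and 57.1 CPM in WT SCC, against 19.0, 30.8 and 33.9 CPM in WT skin (log2 fold change 1.12 ± 0.21 (SE)). Mki67, a general marker of cycling cells, did not pass, with 210.2, 198 and 171 CPM in WT SCC, against 52.9, 132 and 179 CPM in WT skin (log2 fold change 0.67 ± 0.32 (SE), adjusted p = 0.118), and neither did the replication clamp Pcna (0.36). In WT skin replicate 3 Mki67 lay between WT SCC libraries, whereas replicate 1 was far lower. WT skin replicate 3 also had the highest hair gene sum. Without WT skin replicate 3, 24 S phase and 24 mitosis genes rose; without WT skin replicate 2, 11 S phase genes did, and with sex as a term 8 and 8. Mki67 was called with no filter on low counts and without WT skin replicate 3 (adjusted p = 0.0252 and 0.0142). Pcna was called without WT skin replicate 3 (adjusted p = 0.0312).

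Targets of p53 and cell cycle inhibitors rose in 12 of 19 and fell in 4. Plk2 had 195, 189 and 172 CPM in WT SCC, against 62.1, 66.2 and 61.4 CPM in WT skin (log2 fold change 1.55 ± 0.13 (SE), adjusted p = 1.47e-05), and Pmaip1 (Noxa), a death-promoting BCL2 relative, had 37.3, 36.8 and 40.1 CPM in WT SCC, against 13.4, 10.3 and 7.12 CPM in WT skin (log2 fold change 1.90 ± 0.23 (SE)). Mdm2, the ubiquitin ligase of p53, rose by 0.82 on the log2 scale, and Zmat3, Aen and Phlda3 by 1.38, 1.20 and 1.28. The 4 that fell were Sesn1 (-0.45) and the CDK inhibitors Cdkn1b (-0.60), Cdkn1c (-2.34) and Cdkn2c (-1.58). The call of Sesn1 was lost without any one library other than WT skin replicate 1 (adjusted p = 0.0515 to 0.101). Sesn1 was not called with no filter on low counts (adjusted p = 0.109). Sesn1 was not called with sex as a term (adjusted p = 0.142).

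Metabolic genes showed one of the most uniform shifts. Of 24 genes of hypoxia and glycolysis, 21 rose and 1 fell, with a median of 1.66. Pkm, which carries out the last step of glycolysis, had 2604, 2767 and 2540.2 CPM in WT SCC, against 885, 841 and 611 CPM in WT skin (log2 fold change 1.76 ± 0.18 (SE), adjusted p = 5.1e-05), and Ldha, which makes lactate, had 2819, 2675 and 2388 CPM in WT SCC, against 975, 792 and 741 CPM in WT skin (log2 fold change 1.65 ± 0.19 (SE), adjusted p = 9.3e-05). Car9, a carbonic anhydrase and classic target of hypoxia factors, had 19.6, 26.7 and 22.1 CPM in WT SCC, against 3.43, 3.52 and 2.80 CPM in WT skin (log2 fold change 2.81 ± 0.29 (SE), adjusted p = 5.23e-05). In these genes the skin libraries were all below the tumours. Eno1, Pgk1, Pgam1 and Pfkl rose by 1.83, 1.68, 2.07 and 2.28 on the log2 scale, and Pfkfb3 was the member that fell (-0.56). Nuclear genes of the respiratory chain mostly did not pass the test (2 of 22 higher, 2 lower, 18 not called), and those called were Ndufa4 and Ndufab1 (1.0 and 0.40) and the complex II subunits Sdha and Sdhb (-0.53 and -0.56). With sex as a term 0 rose. The call of Ndufab1 was lost without WT SCC replicate 1, WT SCC replicate 3 or WT skin replicate 2 (adjusted p = 0.0672 to 0.088). The call of Sdhb was lost without WT SCC replicate 2 (adjusted p = 0.059). Of 13 mitochondrially encoded transcripts 1, mt-Nd6, was called lower (-0.65), while 3 fell without WT skin replicate 1. The call of mt-Nd6 was lost without WT SCC replicate 2, WT SCC replicate 3, WT skin replicate 2 or WT skin replicate 3 (adjusted p = 0.0675 to 0.0998). Ndufa4, Ndufab1 and mt-Nd6 were not called with sex as a term (adjusted p = 0.0512, 0.218 and 0.064).

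Targets of NRF2, the transcription factor of the oxidative stress response, rose in 15 of 22 and fell in 2, with a median of 1.19. Nfe2l2, which encodes NRF2, had 608, 561 and 584 CPM in WT SCC, against 97.2, 111 and 78.8 CPM in WT skin (log2 fold change 2.61 ± 0.15 (SE), adjusted p = 4.69e-06). Gclm, a subunit of the enzyme that starts glutathione synthesis, had 559, 539.8 and 469 CPM in WT SCC, against 38.6, 59.7 and 57.1 CPM in WT skin (log2 fold change 3.33 ± 0.28 (SE), adjusted p = 1.77e-05), and the cystine importer Slc7a11 had 124, 74.2 and 78.3 CPM in WT SCC, against 5.01, 9.95 and 12.9 CPM in WT skin (log2 fold change 3.30 ± 0.35 (SE)). The highest skin library stayed well below the lowest tumour in all 3. Gpx2, Nqo1, Gsta4, Srxn1 and G6pdx rose by 3.41, 2.76, 3.94, 1.75 and 1.34 on the log2 scale, whereas Txnrd1 and Me1 fell (log2 fold changes of -0.86 and -1.80). The amino acid stress and serine synthesis genes rose in 11 of 19 and fell in 1, or 2 without WT skin replicate 2: Asns, Shmt2 and Psat1 rose by 1.21, 1.30 and 1.0 on the log2 scale, and the glutathione-degrading Chac1 fell (-1.62). Cholesterol synthesis was little changed, with 2 of 20 higher, 3 lower and 15 not called (4 higher without WT skin replicate 1 or with no filter on low counts, and 1 without WT SCC replicate 2 or with sex as a term). Insig1 and Msmo1 fell (log2 fold changes of -1.46 and -0.61), and the regulator Srebf2 rose by 0.61. The call of Msmo1 was lost without WT SCC replicate 2, WT SCC replicate 3 or WT skin replicate 1 (adjusted p = 0.0703 to 0.105). The call of Srebf2 was lost without WT SCC replicate 2 (adjusted p = 0.068). Msmo1 and Srebf2 were not called with sex as a term (adjusted p = 0.0533 and 0.0895). Gsta4 had a log2 fold change of 5.31 with sex as a term.

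Transcripts of the translation and folding machinery were higher. Cytosolic ribosomal protein genes rose in 20 of 22 and fell in 0, with a median of 0.70. Rplp0 had 5174, 4627 and 4479.9 CPM in WT SCC, against 2754, 2747 and 2985 CPM in WT skin (log2 fold change 0.75 ± 0.14 (SE), adjusted p = 0.00165), and Rps6 had 2613, 2055 and 1939.7 CPM in WT SCC, against 1239, 1308 and 1524 CPM in WT skin (log2 fold change 0.70 ± 0.16 (SE)). Without WT SCC replicate 1, which had the highest ribosomal sum of the tumours, 13 rose, and with sex as a term 8. Ribosomal genes have many processed copies, so their counts are uncertain. Heat shock chaperones rose in 11 of 16 and fell in 0 (6 rose with sex as a term and 7 without WT skin replicate 2). Hspa8 had 2326, 1963 and 1817 CPM in WT SCC, against 834, 866 and 1077 CPM in WT skin (log2 fold change 1.14 ± 0.18 (SE), adjusted p = 0.000576), and Dnajb1 rose by 0.94 and Hspd1 by 0.85 on the log2 scale.

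Fibroblast genes were much lower in the tumours, with 15 of 17 lower and 1 higher (median -2.65, or -2.18 with the gene at 0 counts set to its bound). Dcn (decorin), a proteoglycan of the dermis, had 81.3, 94.8 and 145 CPM in WT SCC, against 2891, 1619 and 1328 CPM in WT skin (log2 fold change -4.18 ± 0.61 (SE), adjusted p = 0.000358). Clec3b (tetranectin) had 0.145, 1.87 and 5.10 CPM in WT SCC, against 322, 150.5 and 232 CPM in WT skin (log2 fold change -6.61 ± 1.04 (SE), adjusted p = 0.000621), and Pdgfra, the receptor that defines fibroblasts, had 17.5, 22.5 and 30.5 CPM in WT SCC, against 62.4, 56.5 and 79.6 CPM in WT skin (log2 fold change -1.49 ± 0.26 (SE), adjusted p = 0.00109). All tumours were below all skin libraries. Crabp1 was the one that rose (0.86). The call of Crabp1 was lost without any one library other than WT skin replicate 1 (adjusted p = 0.0534 to 0.117). Collagens fell in 9 of 23 and rose in 3 (5 fell with sex as a term). Col1a2, a chain of the main fibrillar collagen of dermis, had 728, 883 and 1166 CPM in WT SCC, against 14036, 7189 and 1076 CPM in WT skin (log2 fold change -3.0 ± 0.74 (SE), adjusted p = 0.00801), and WT skin replicate 3 lay between WT SCC libraries. Col12a1, Col18a1 and Col8a1 stood against the others: Col12a1, a collagen of loaded and tumour stroma, had 226, 251 and 323 CPM in WT SCC, against 86.9, 137 and 72.9 CPM in WT skin (log2 fold change 1.43 ± 0.30 (SE), adjusted p = 0.00331), and Col18a1 and Col8a1 rose by 1.21 and 2.51. The ratio of Col12a1 to Col1a1 was 0.612, 0.469 and 0.429 in WT SCC, against 0.011, 0.031 and 0.176 in WT skin, with no overlap. Col4a3, Col4a4 and Col6a6 fell (log2 fold changes of -3.81, -3.84 and -5.62). Crabp1 was not called in the 6 WT libraries alone (adjusted p = 0.0515). Crabp1 and Col1a2 were not called with sex as a term (adjusted p = 0.0989 and 0.322). Dcn, Col1a2, Col4a3 and Col4a4 had log2 fold changes of -3.30, -0.80, -1.93 and -2.94 with sex as a term. Clec3b and Col4a3 had log2 fold changes of -7.79 and -4.59 without WT SCC replicate 3. Col1a2 had a log2 fold change of -2.15 without WT skin replicate 1. Col4a4 had a log2 fold change of -4.60 without WT SCC replicate 2.

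Of 23 genes of matricellular proteins, 5 were higher, a share little above the 16.9% of all genes, and 10 were lower. Thbs1 (thrombospondin 1) had 352, 374 and 384 CPM in WT SCC, against 70.7, 149 and 129 CPM in WT skin (log2 fold change 1.67 ± 0.23 (SE), adjusted p = 0.000264), Spp1 (osteopontin) had 39.8, 39.3 and 40.4 CPM in WT SCC, against 15.1, 6.04 and 13.5 CPM in WT skin (log2 fold change 1.79 ± 0.34 (SE)) and Tnc (tenascin C) had 115, 106 and 111 CPM in WT SCC, against 61.2, 64.6 and 62.1 CPM in WT skin (log2 fold change 0.82 ± 0.26 (SE), adjusted p = 0.0263). The tumours were above the skin libraries for these 3. Wisp1 and Nov also rose (1.30 and 2.47), whereas Tnxb, Ogn, Sparc and Cyr61 fell (log2 fold changes of -5.18, -3.45, -2.55 and -1.0). The call of Tnc was lost without any one library other than WT skin replicate 3 (adjusted p = 0.0539 to 0.0697), in fits that kept the KO libraries. In the 6 WT libraries alone Tnc was called (adjusted p = 0.000929). The call of Nov was lost without any one library other than WT skin replicate 3 (adjusted p = 0.0518 to 0.112). Leaving out any library other than WT skin replicate 3 gave 3 higher members. The number lower was 5 without WT SCC replicate 1, WT SCC replicate 2 or WT skin replicate 1 and 4 with sex as a term. Metalloproteinases and the plasminogen system rose in 8 of 23 and fell in 6 (5 rose without WT SCC replicate 2 and also without replicate 3). Their share that fell is near the 23.6% of all genes. Mmp13, a collagenase, had 88.7, 59.2 and 44.7 CPM in WT SCC, against 5.21, 10.9 and 1.92 CPM in WT skin (log2 fold change 3.42 ± 0.65 (SE), adjusted p = 0.00189), and the plasminogen activator Plau had 178, 196 and 176 CPM in WT SCC, against 77.2, 112 and 63.2 CPM in WT skin (log2 fold change 1.12 ± 0.22 (SE)). Mmp2, a gelatinase of fibroblasts, fell by 2.27, and the inhibitors Timp2 and Timp3 also fell (-2.63 and -2.10), while Timp1 rose by 1.14. TGF-beta ligands and targets rose in 9 of 17 and fell in 3 (4 rose without WT SCC replicate 2, and 1 fell with sex as a term). Tgfb1 had 38.0, 60.1 and 59.0 CPM in WT SCC, against 30.5, 25.1 and 28.3 CPM in WT skin (log2 fold change 0.91 ± 0.17 (SE)), whereas Tgfb2 fell (-1.55), with the binding proteins Ltbp1 (-0.77) and Ltbp4 (-0.83). The activin subunit Inhba and the feedback gene Skil rose by 1.32 and 0.97. The call of Ltbp1 was lost without any one library other than WT skin replicate 3 (adjusted p = 0.0655 to 0.115). Nov, Sparc, Tgfb2 and Ltbp1 were not called with sex as a term (adjusted p = 0.387, 0.265, 0.061 and 0.533). Nov, Sparc, Mmp13, Mmp2, Tgfb2 and Ltbp1 had log2 fold changes of 1.16, -0.97, 4.53, -1.29, -0.88 and -0.16 with sex as a term. Nov had a log2 fold change of 3.19 without WT skin replicate 3. Sparc had a log2 fold change of -1.68 without WT skin replicate 1. Mmp13 had a log2 fold change of 4.18 without WT skin replicate 2.

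Of the cell type lists, those of hair keratins, skeletal muscle and adipocytes had the lowest medians. Skeletal muscle genes fell in 19 of 19, with a median of -7.05 and summed levels of 354, 452 and 620.3 CPM in WT SCC, against 9939, 13071 and 9753 CPM in WT skin. Acta1, skeletal actin, had 0.377, 1.89 and 38.7 CPM in WT SCC, against 1437, 2295 and 1756 CPM in WT skin (log2 fold change -7.06 ± 1.35 (SE), adjusted p = 0.00202), and WT SCC replicate 3 was the highest of the tumours. Hair keratins and keratin-associated proteins fell in 25 of 26, with a median of -11.39, or -8.78 with the 10 genes at 0 counts in every tumour set to their bounds. The number was 13 in the 6 WT libraries alone. Krt71, of the inner root sheath, had 0.435, 0.144 and 0.489 CPM in WT SCC, against 7.72, 659 and 4265 CPM in WT skin (log2 fold change -12.19 ± 2.86 (SE), adjusted p = 0.00632). The skin libraries differed by orders of magnitude, and all exceeded the tumours. Genes of hair follicle stem and progenitor cells fell in 12 of 15 and rose in 0: Lgr5 had 3.86, 3.38 and 4.82 CPM in WT SCC, against 29.9, 20.7 and 31.5 CPM in WT skin (log2 fold change -2.77 ± 0.35 (SE), adjusted p = 0.000158), Lgr6 had 3.25, 3.99 and 3.35 CPM in WT SCC, against 25.4, 28.1 and 25.9 CPM in WT skin (log2 fold change -2.90 ± 0.29 (SE)) and Cd34 had 113, 93.1 and 99.4 CPM in WT SCC, against 365, 185 and 263 CPM in WT skin (log2 fold change -1.41 ± 0.26 (SE)). Postn, the most abundant of that list and also a stromal gene, did not pass (log2 fold change 0.26 ± 0.31 (SE), adjusted p = 0.512). Acta1 had a log2 fold change of -10.61 without WT SCC replicate 3. Krt71 had a log2 fold change of -12.79 without WT skin replicate 1. Krt71 had a log2 fold change of -9.88 without WT skin replicate 3.

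Adipocyte genes fell in 15 of 17 and rose in 1, with a median of -6.77. Plin1, which coats fat droplets, had 0.116, 0.864 and 1.12 CPM in WT SCC, against 141, 83.5 and 103 CPM in WT skin (log2 fold change -7.23 ± 1.12 (SE), adjusted p = 0.000533), and the hormone gene Lep had 0.0290, 0.473 and 0.163 CPM in WT SCC, against 116, 41.1 and 19.7 CPM in WT skin (log2 fold change -7.94 ± 1.21 (SE)). Fabp4 rose (log2 fold change 1.03 ± 0.37 (SE), adjusted p = 0.0439), with 2675, 1750.3 and 1997 CPM in WT SCC, against 1100.2, 968 and 1082 CPM in WT skin. The call of Fabp4 was lost without any one of the 6 libraries (adjusted p = 0.0596 to 0.142). Sebaceous gland genes fell in 14 of 18 and rose in 0: Scd1, a desaturase of sebum synthesis, had 112, 109 and 177 CPM in WT SCC, against 2095, 2132 and 2729 CPM in WT skin (log2 fold change -4.13 ± 0.60 (SE), adjusted p = 0.000364), and Awat2, which makes wax esters, had 4.24, 3.73 and 5.31 CPM in WT SCC, against 84.2, 62.6 and 85.5 CPM in WT skin (log2 fold change -4.13 ± 0.63 (SE)). Melanocyte genes fell in 8 of 12 and rose in 0 (Mitf -2.56, Sox10 -2.94, Kit -1.79). Schwann cell genes fell in 10 of 13, including Mbp (-2.12) and Prx (-3.0). The 1 that rose was Mal (log2 fold change 2.62 ± 0.28 (SE), adjusted p = 5.97e-05), which epithelia also express. Genes of blood and lymphatic endothelium fell in 12 of 21: Pecam1 had 49.0, 53.1 and 60.3 CPM in WT SCC, against 91.1, 105 and 94.7 CPM in WT skin (log2 fold change -0.84 ± 0.17 (SE), adjusted p = 0.00277) and Cldn5 had 7.49, 7.92 and 8.59 CPM in WT SCC, against 50.5, 45.8 and 28 CPM in WT skin (log2 fold change -2.37 ± 0.21 (SE)). The 1 that rose was Emcn (log2 fold change 0.50 ± 0.18 (SE), adjusted p = 0.0497). The call of Emcn was lost without any one library other than WT SCC replicate 2 (adjusted p = 0.0647 to 0.2). With no filter on low counts, and in the 6 WT libraries alone, 3 endothelial genes rose. Of myofibroblast, smooth muscle and pericyte genes 7 of 14 fell and 1 rose (Notch3, 0.90). Des (desmin), also a muscle gene, had 6.07, 7.62 and 15.3 CPM in WT SCC, against 329, 477 and 352 CPM in WT skin (log2 fold change -5.32 ± 0.37 (SE)), whereas Acta2, smooth muscle actin, had 183, 191 and 231 CPM in WT SCC, against 222, 208 and 253 CPM in WT skin and did not pass (log2 fold change -0.17 ± 0.25 (SE), adjusted p = 0.592). Of 6 red blood cell genes 1 was called lower, Slc4a1 (-5.03). The call of Slc4a1 was lost without WT SCC replicate 1, WT SCC replicate 3 or WT skin replicate 3 (adjusted p = 0.0668 to 0.126). Fabp4 and Emcn were not called with sex as a term (adjusted p = 0.145 and 0.124). Emcn was not called with RLE scaling (adjusted p = 0.0568). Emcn was not called with scaling that left out tissue genes (adjusted p = 0.0511). Lep and Slc4a1 had log2 fold changes of -6.50 and -6.35 with sex as a term. Lep and Slc4a1 had log2 fold changes of -9.13 and -6.48 without WT SCC replicate 2. Lep had a log2 fold change of -6.99 without WT skin replicate 1. Slc4a1 had a log2 fold change of -2.95 without WT skin replicate 3.

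**Figure D5:**
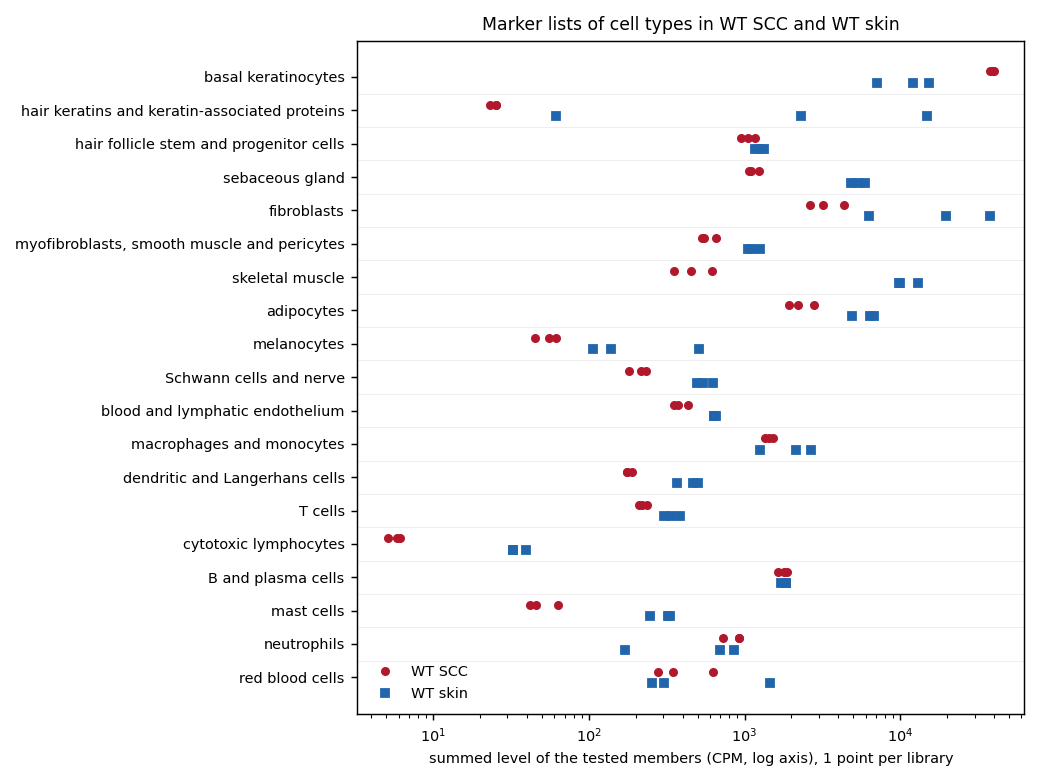
Summed levels (CPM, log axis) of the marker lists of cell types, with 1 point for each WT SCC library (upper row of each list) and each WT skin library (lower row). Muscle, hair and fibroblast sums are lower in all 3 WT SCC libraries than in all 3 WT skin libraries, and basal keratinocyte sums are higher.

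Markers of most immune cells were lower. T cell genes fell in 18 of 21 and rose in 2, with a median of -2.12. Cd3g, a subunit of the T cell receptor complex, had 2.23, 2.35 and 3.63 CPM in WT SCC, against 25.8, 16.4 and 11.3 CPM in WT skin (log2 fold change -2.70 ± 0.31 (SE), adjusted p = 9.09e-05), and Cd8a, of cytotoxic T cells, had 0.232, 0.370 and 0.256 CPM in WT SCC, against 6.48, 4.55 and 3.08 CPM in WT skin (log2 fold change -4.01 ± 0.54 (SE), adjusted p = 0.000214). The tumours were below all skin libraries for both, and Cd8a was under 1 CPM in each of them. Trbc1, a constant segment of the receptor beta chain, had 3.16, 2.28 and 2.91 CPM in WT SCC, against 23, 16.5 and 14.3 CPM in WT skin (log2 fold change -2.69 ± 0.30 (SE)), but its neighbour Trbc2 went the other way, with 136, 113 and 97.4 CPM in WT SCC, against 46.1, 40.4 and 32.4 CPM in WT skin (log2 fold change 1.54 ± 0.18 (SE), adjusted p = 0.000108), as did Cd5 (0.79). The 2 Trbc segments are near-identical copies, so the split of reads between them is uncertain. Added together, they were still higher in every WT SCC library than in any WT skin library, against the direction of most T cell genes. Genes of cytotoxic lymphocytes fell in 9 of 14 and rose in 0, 5 falling with sex as a term. Nkg7 had 0.261, 0.268 and 0.605 CPM in WT SCC, against 7.17, 4.53 and 3.74 CPM in WT skin (log2 fold change -3.75 ± 0.52 (SE), adjusted p = 0.000274), and Gzmc and Klrk1 fell (log2 fold changes of -3.44 and -2.48). Ifng, the cytokine of these cells, had 0, 0.206 and 0.116 CPM in WT SCC, against 1.32, 1.13 and 0.388 CPM in WT skin (log2 fold change -3.05 ± 0.94 (SE), adjusted p = 0.0234), at the edge of detection in the tumours. The call of Ifng was lost without WT SCC replicate 3, WT skin replicate 1 or WT skin replicate 2 (adjusted p = 0.0542 to 0.0559). Ifng was not called with sex as a term (adjusted p = 0.16). Nkg7 had a log2 fold change of -3.12 with sex as a term. Ifng had a log2 fold change of -3.88 without WT SCC replicate 2.

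Dendritic and Langerhans cell genes fell in 12 of 14 and rose in 1. Cd207 (langerin), of Langerhans cells in the epidermis, had 4.67, 3.42 and 5.01 CPM in WT SCC, against 37.4, 28.7 and 21.2 CPM in WT skin (log2 fold change -2.74 ± 0.32 (SE), adjusted p = 9.44e-05). Mgl2 and Cd209a fell (log2 fold changes of -3.11 and -3.18), and Xcr1 and Clec9a, of cross-presenting dendritic cells, also fell (-3.02 and -2.04), while Itgax rose (0.92). Macrophage and monocyte genes fell in 12 of 23 and rose in 2, or 1 with sex as a term or without any WT SCC library or WT skin replicate 1. Csf1r, the growth factor receptor of macrophages, had 36.9, 39.8 and 49.3 CPM in WT SCC, against 159.8, 101 and 148 CPM in WT skin (log2 fold change -1.7 ± 0.20 (SE), adjusted p = 0.000108), and Mrc1 and Cd163, of resident macrophages, fell (log2 fold changes of -2.70 and -3.08). Arg1 (arginase 1), made by suppressive myeloid cells and also by keratinocytes, rose, with 559, 634 and 555 CPM in WT SCC, against 206, 68.7 and 48.4 CPM in WT skin (log2 fold change 2.44 ± 0.50 (SE), adjusted p = 0.00293). Mast cell genes fell in 10 of 12 and rose in 0, Cma1 having 5.37, 5.62 and 8.06 CPM in WT SCC, against 36.5, 52.5 and 53.5 CPM in WT skin (log2 fold change -2.90 ± 0.26 (SE), adjusted p = 2.28e-05) and Cpa3 and Mcpt4 log2 fold changes of -2.70 and -2.95. Of 13 genes of B and plasma cells, 8 fell and 1 rose. That count fell to 3 without WT SCC replicate 2, to 4 without replicate 1 or 3 or with sex as a term, and to 5 without WT skin replicates 2 or 3. Ighm had 9.64, 8.79 and 12.7 CPM in WT SCC, against 116, 78.8 and 336 CPM in WT skin (log2 fold change -4.09 ± 0.53 (SE), adjusted p = 0.00017), and the member that rose was Sdc1 (syndecan 1), which keratinocytes also make in large amounts (1.14). Arg1 had a log2 fold change of 3.56 with sex as a term. Arg1 had a log2 fold change of 3.31 without WT skin replicate 1. Ighm had a log2 fold change of -3.22 without WT skin replicate 3.

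Neutrophil genes mostly did not pass the test. Of 15 tested, 3 rose, 1 fell and 11 were not called, and the share that rose is near the 16.9% of all genes. Csf3r, the G-CSF receptor, had 20.6, 18.4 and 21.3 CPM in WT SCC, against 5.58, 5.58 and 8.79 CPM in WT skin (log2 fold change 1.59 ± 0.20 (SE), adjusted p = 0.00014), and Cxcr2, the receptor for neutrophil chemokines, had 18.3, 16.8 and 18.9 CPM in WT SCC, against 7.62, 4.07 and 3.01 CPM in WT skin (log2 fold change 1.88 ± 0.29 (SE), adjusted p = 0.000553). Trem1 rose by 3.04 on the log2 scale and the decoy receptor Il1r2 fell by 1.72. Without a filter on low counts 5 rose and 3 fell, and 2 fell without WT SCC replicate 3 or WT skin replicate 3. S100a8, the most abundant of the list and also a keratinocyte gene, had 514, 397 and 501 CPM in WT SCC, against 264, 329 and 38.5 CPM in WT skin (log2 fold change 1.16 ± 0.64 (SE), adjusted p = 0.161). Relative to Ptprc (CD45), which most leukocytes share, Csf3r stood at 0.634, 0.7 and 0.577 in WT SCC, against 0.0921, 0.107 and 0.137 in WT skin. Cd3g stood at 0.0686, 0.0892 and 0.0985 in WT SCC, against 0.426, 0.314 and 0.176 in WT skin, and Cd8a at 0.00713, 0.0141 and 0.00695 in WT SCC, against 0.107, 0.0874 and 0.0479 in WT skin. The ratio of Csf3r to Ptprc was thus higher, and those of Cd3g and Cd8a to Ptprc were lower, in every tumour than in any skin library, with the same smallest possible p of 0.1 for each ratio. These ratios also depend on the level of Ptprc. Csf3r does not stand for the neutrophil list, whose median log2 fold change was 0.08. The sums of that list overlapped, with 918, 722 and 924 CPM in WT SCC, against 858, 694 and 171 CPM in WT skin. S100a8 was called with no filter on low counts and with sex as a term (adjusted p = 0.0076 and 0.0143). S100a8 had a log2 fold change of 2.88 with sex as a term.

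The interferon response was lower: 19 of 23 genes fell and 0 rose, with a median of -1.80. The feedback gene Usp18 had 2.61, 1.36 and 2.07 CPM in WT SCC, against 22.6, 12.1 and 14.8 CPM in WT skin (log2 fold change -3.04 ± 0.41 (SE), adjusted p = 0.000229). Gbp2, Irf1, Ifih1 and Bst2 fell (log2 fold changes of -2.39, -1.05, -1.78 and -1.94). Genes of MHC class I and peptide loading fell in 15 of 16 and rose in 0, with a median of -1.49. B2m, the invariant light chain, had 679, 529 and 611 CPM in WT SCC, against 1919, 1419 and 1695 CPM in WT skin (log2 fold change -1.47 ± 0.18 (SE), adjusted p = 0.000115), and Psmb8, of the immunoproteasome, had 21.4, 16.9 and 20.2 CPM in WT SCC, against 96.9, 71.3 and 80.8 CPM in WT skin (log2 fold change -2.09 ± 0.17 (SE), adjusted p = 1.4e-05). MHC class II genes fell in 10 of 11 and rose in 0, with Cd74 at 268, 333 and 410.2 CPM in WT SCC, against 1705, 1003 and 1365 CPM in WT skin (log2 fold change -2.01 ± 0.26 (SE), adjusted p = 0.00016). Across B2m, Psmb8, Usp18 and Cd74 the highest tumour was below the lowest skin library. Class I genes of the H2-Q group are close copies, and their separate values (H2-Q6 -3.33, H2-Q7 -2.48) are uncertain.

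Immune checkpoint genes fell in 8 of 18 and rose in 2 (5 fell with sex as a term and also without WT SCC replicates 1 or 2). Cd274 (PD-L1) had 3.48, 2.70 and 5.08 CPM in WT SCC, against 13.4, 13.6 and 9.83 CPM in WT skin (log2 fold change -1.71 ± 0.32 (SE), adjusted p = 0.00159), whereas Cd80, a ligand of CD28 and CTLA4, had 18.1, 17.3 and 13.3 CPM in WT SCC, against 3.23, 1.93 and 2.33 CPM in WT skin (log2 fold change 2.70 ± 0.26 (SE), adjusted p = 2.95e-05). Cd276 rose and Vsir, Cd86 and Tnfrsf4 fell (0.84, -1.40, -1.26 and -1.05).

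Lists of inflammatory mediators differed in their main direction. IL-1 family and cytokine genes rose in 9 of 23 and fell in 4, the share that fell being below the 23.6% of all genes. The receptor antagonist Il1rn had 255, 209 and 215 CPM in WT SCC, against 57.7, 36.5 and 44.0 CPM in WT skin (log2 fold change 2.30 ± 0.23 (SE), adjusted p = 4.37e-05), and Il1b had 37.6, 25.2 and 37.6 CPM in WT SCC, against 9.48, 8.48 and 16.5 CPM in WT skin (log2 fold change 1.54 ± 0.34 (SE), adjusted p = 0.00429). The IL-36 cytokines Il1f8 and Il1f9 rose by 1.37 and 1.91 on the log2 scale, while their antagonist Il1f5 fell by 0.93. Il18, Il34, a survival factor of Langerhans cells, and Tnf fell (log2 fold changes of -2.15, -1.43 and -0.90). The call of Tnf was lost without WT SCC replicate 1, WT SCC replicate 2, WT SCC replicate 3 or WT skin replicate 1 (adjusted p = 0.0943 to 0.217). Of 9 neutrophil chemokine and receptor genes 2 rose and 0 fell: Cxcr2 and Cxcl1, which had 57.9, 47.8 and 41.5 CPM in WT SCC, against 4.59, 2.62 and 1.27 CPM in WT skin (log2 fold change 4.13 ± 0.57 (SE), adjusted p = 0.000262). With sex as a term, and without WT skin replicate 1, which had the highest summed level of this list in skin, 4 rose. In the main fit the share of this list that rose, 2 of 9, is near the 16.9% of all genes. Lymphocyte and monocyte chemokines fell in 11 of 21 and rose in 2, or 4 without WT skin replicate 3 (6 fell without WT SCC replicate 2 and with sex as a term, and 7 without WT SCC replicate 1). Ccl27a, a keratinocyte chemokine that draws T cells to skin, had 13.4, 10.3 and 11.2 CPM in WT SCC, against 156, 132 and 101 CPM in WT skin (log2 fold change -3.48 ± 0.22 (SE), adjusted p = 4.82e-06), and Cxcl12, Ccl8 and Ccl20 fell (log2 fold changes of -2.87, -2.99 and -1.82). Ccl2, which draws monocytes, had 28.8, 28.4 and 25.4 CPM in WT SCC, against 7.35, 6.00 and 11.7 CPM in WT skin (log2 fold change 1.72 ± 0.31 (SE), adjusted p = 0.0014) and rose, as did Cx3cl1 (1.66). Prostaglandin and leukotriene genes fell in 7 of 16 and rose in 1, or 2 without WT skin replicates 2 or 3: Ptges, the inducible prostaglandin E synthase, had 125, 142 and 134 CPM in WT SCC, against 67.5, 57.3 and 36.4 CPM in WT skin (log2 fold change 1.31 ± 0.26 (SE), adjusted p = 0.00215), while Hpgd, which degrades prostaglandins, had 5.34, 5.33 and 8.13 CPM in WT SCC, against 64.0, 39.5 and 37.9 CPM in WT skin (log2 fold change -2.91 ± 0.25 (SE), adjusted p = 1.86e-05). Ptger3, Ptger4 and Alox5 fell (log2 fold changes of -3.30, -1.20 and -2.42). Tnf was not called with no filter on low counts (adjusted p = 0.0826). Tnf was not called in the 6 WT libraries alone (adjusted p = 0.063). Tnf and Ccl20 were not called with sex as a term (adjusted p = 0.367 and 0.077). Ptger3 had a log2 fold change of -2.54 with sex as a term.

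Developmental pathways of the follicle and epidermis were the last group. Wnt genes fell in 12 of 25 and rose in 6. Axin2, the general target of Wnt signalling, had 2.58, 3.21 and 3.47 CPM in WT SCC, against 23.5, 21 and 15.4 CPM in WT skin (log2 fold change -2.69 ± 0.30 (SE), adjusted p = 7.63e-05), and Wnt3 had 0.348, 0.0823 and 0.442 CPM in WT SCC, against 18.2, 15 and 13.1 CPM in WT skin (log2 fold change -5.74 ± 0.53 (SE), adjusted p = 2.67e-05). Lef1 and Nkd1 fell (log2 fold changes of -3.89 and -2.37), whereas Wnt4, Wnt5a, Wnt10a, the Wnt-processing enzyme Porcn and the inhibitors Sfrp1 and Dkk3 rose by 1.56, 1.16, 1.47, 1.95, 1.38 and 0.88 on the log2 scale. Hedgehog genes fell in 5 of 10 and rose in 2: the target Gli1 had 1.34, 1.73 and 1.51 CPM in WT SCC, against 7.37, 12.3 and 31.5 CPM in WT skin (log2 fold change -3.48 ± 0.49 (SE), adjusted p = 0.000302), and Ptch1 fell (log2 fold change of -1.42), while Smo and Sufu rose by 0.81 and 0.73. In skin the targets Gli1, Lef1 and Ptch1 were highest in replicate 3, the library with the highest hair sum. Notch genes rose in 6 of 16 and fell in 3. Hes1, a repressor that Notch induces, had 104, 126 and 110.0 CPM in WT SCC, against 54.5, 61.1 and 57.2 CPM in WT skin (log2 fold change 0.98 ± 0.12 (SE), adjusted p = 0.000129), and Nrarp and Jag1 rose by 1.41 and 0.97, whereas Rbpj, Lfng and Maml2 fell (log2 fold changes of -0.72, -0.90 and -0.57). The call of Maml2 was lost without any one library other than WT skin replicate 1 (adjusted p = 0.0805 to 0.143). IGF ligands and binding proteins fell in 5 of 12 and rose in 1 (3 fell without WT SCC replicate 2, and 2 rose with sex as a term, with no filter on low counts or without WT skin replicates 1 or 3). Igfbp6 and Igfbp5 fell (log2 fold changes of -4.17 and -2.95) and Igf1 fell by 1.25, and Igf2r, which clears IGF2, rose by 1.14. Maml2 was not called with no filter on low counts (adjusted p = 0.136). Maml2 was not called in the 6 WT libraries alone (adjusted p = 0.0644). Maml2 and Igf1 were not called with sex as a term (adjusted p = 0.105 and 0.064). Lef1 had a log2 fold change of -4.48 with sex as a term. Lef1, Gli1 and Ptch1 had log2 fold changes of -2.65, -2.67 and -0.81 without WT skin replicate 3.

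In the lesions labelled KO, Hmga2, Sox2 and Fosl1 stood on the tumour side of WT skin. Hmga2 had 95.7 and 53 CPM in KO SCC and 91.8, 49.7 and 70.3 CPM in KO papilloma, and Sox2 had 61.3 and 52.7 CPM in KO SCC and 19.2, 26.0 and 37.2 CPM in KO papilloma. Fosl1 had 31.2 and 27.9 CPM in KO SCC and 22.6, 26.9 and 35.5 CPM in KO papilloma. Every one of these values lay above the highest WT skin library. Flg2 was intermediate in papillomas, with 10.6 and 11.4 CPM in KO SCC and 64.8, 47.2 and 55.5 CPM in KO papilloma. The summed level of the differentiation list was 18734 to 22408 CPM in KO papilloma, above the 7554 to 12343 CPM of WT skin, and the hair sum of 1081, 412 and 50.6 CPM in KO papilloma overlapped with that of WT skin. These values are given for their levels only, since these lesions differ from WT skin both in being tumours and in the genotype label.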

How the data were processed

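Whole-number counts per gene were deposited by the authors as 1 mouse table of 11 libraries, unnormalized, from a stranded mRNA kit, per the labels' protocols. The submitters' processing notes name HISAT2, StringTie, DESeq and mm10, without versions; for the counting rule, nothing is stated there or in the labels. The 1456 nameless rows (0.115 to 0.496% of counts) were left out, rows of 1 symbol were summed, and 54429 genes remained. edgeR 4.0.16 (R 4.3.3) filtered low counts by group, scaled by TMM and ran the quasi-likelihood test on 11 libraries in 4 groups, with Benjamini-Hochberg adjustment over 22363 genes and a threshold of 0.05. Standard errors come from the F statistic. Genes at 0 were bounded at 3 counts per library, which covers counting error only.

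Members and gene lists were chosen with earlier results of these data known. Named are the 12 largest separated rises and falls outside the hair, muscle, fat and blood lists (average log2 CPM of 3 or more), of each list the 8 members with the smallest p, the most abundant member and those against its direction, and Dusp1, Hras, Trp53 and Cdkn2a; values are given for some. Positions and overlaps come from GENCODE and promoters from RefSeq, both on GRCm38. Alternatives were other scaling, DESeq2 1.42.0, no filter, a replicate block, 6 libraries only, sex as a term, a test against a 2-fold change, and leaving out each library. Some genes that the rule names are not reported here.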

Additional observations from a re-analysis of the deposited data

How the results depend on the processing

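The test called 9053 genes. Alternatives called 9033 with RLE scaling (8991 of them among the 9053), 9046 with scaling that left out muscle, fat, hair, blood and mitochondrial genes (9027), 9220 with no filter (8127), 9936 with DESeq2 (8909) and 8579 in the 6 WT libraries alone (8018), with 0 of the 9053 called in the opposite direction. Shifts of the median log2 fold change stayed at or below 0.063. With sex as a term 6099 genes were called, 2294 of them higher, against 3771 without it, and the cause was not tested. A test against a 2-fold change, by construction stricter, called 3002 genes, 572 higher and 2430 lower. Leaving out 1 library gave 6749 to 9584 genes called, 2799 to 4093 higher and 3950 to 5491 lower, and 25 to 26 of the 59 lists with more members higher than lower. Correlations of the deviations of same-numbered WT SCC and WT skin libraries were -0.198, -0.017 and -0.411, and those of different-numbered libraries -0.252 to 0.381. Deviations from a mean of 3 libraries depend on each other, so these values cannot settle whether replicate numbers pair the samples. The fit with the replicate number as a block called 7870 genes, 3346 higher and 4524 lower. The sign of Dusp1, not called, turned with sex as a term (0.319), and without 1 library its log2 fold change ranged between -0.436 and 0.018, the highest without WT skin replicate 2, and without WT skin replicate 3 it was called (-0.436, adjusted p = 0.0481). Of 306 genes with values in the text that were called, 196 were called under every alternative and 110 lost the call under at least 1. The stricter test against a 2-fold change ended 107 of these calls, and sex as a term, the next largest, ended 28. Depth limits genes with 0 counts in every tumour, for which only a bound on the fold can be given, and lack of overlap between 3 and 3 libraries alone cannot reach p under 0.1.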
